A study of Homo sapiens with 4 samples.

Results

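Ferritin, the transferrin receptor, the metallothioneins and the zinc exporter SLC30A1 are the genes by which a cell takes up, stores and buffers iron and zinc. The set described here holds 8 genes, FTL, FTH1, TFRC, MT2A, MT1X, MT1E, MT1F and SLC30A1, found by symbol among 53777 rows with an Ensembl gene identifier. All 8 had a row, and 7 had enough signal to be tested, since MT1E was listed at 0 in every library. The cells were NUGC3, established from a human stomach cancer, transfected either with a scramble control (2 libraries) or with a short hairpin against NIPBL (2 libraries, 1 with hairpin 1 and 1 with hairpin 7). NIPBL loads cohesin, the ring that folds chromosomes and holds sister chromatids, and the comparison is of these metal genes with and without its full supply. Each hairpin is a single library, all labels carry DOX and combined without explaining them, and the second scramble label is the first with a suffix that may mark a repeat. Separate cultures are not mentioned, so p-values measure the spread of these libraries alone, which may be technical. In bulk RNA, fewer cells of a type and less RNA per cell cannot be told apart.

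Cells take up iron bound to transferrin through the receptor encoded by TFRC, and store what they do not use inside ferritin, a hollow shell built of heavy chains (FTH1), which oxidise iron, and light chains (FTL), which help it to mineralise. When iron is scarce, iron regulatory proteins bind a hairpin in the RNA called the iron-responsive element. Binding in the 5′ untranslated region of ferritin RNA blocks translation, and binding in the 3′ untranslated region of TFRC RNA protects it from decay. Metallothioneins are small cysteine-rich proteins that bind zinc and copper, and SLC30A1 moves zinc out of the cell across the plasma membrane. MTF1, a zinc-sensing transcription factor, activates metallothionein genes and SLC30A1 through short promoter motifs called metal response elements.

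The iron-responsive elements are shown first because they set ferritin and TFRC apart in how their RNA reads iron. They were found in GENCODE 29 transcripts as a shape of 17 bases, a bulged C, 5 bases of stem, the loop CAGTGN of 6 bases and 5 bases that pair with the stem (G with T allowed), and are printed 5′ to 3′ with 5 bases on either side and the loop in capitals.
FTL, 5′ untranslated region, transcript bases 41 to 57: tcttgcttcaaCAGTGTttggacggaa
FTH1, 5′ untranslated region, transcript bases 65 to 81: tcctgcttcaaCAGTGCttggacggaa
TFRC, 3′ untranslated region, transcript bases 3394 to 3410: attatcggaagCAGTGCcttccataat
TFRC, 3′ untranslated region, transcript bases 3798 to 3814: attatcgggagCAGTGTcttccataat
TFRC, 3′ untranslated region, transcript bases 3863 to 3879: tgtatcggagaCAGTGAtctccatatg
TFRC, 3′ untranslated region, transcript bases 3910 to 3926: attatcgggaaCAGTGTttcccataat
Each ferritin gene held 1 match to this exact shape, in the 5′ untranslated region, and TFRC held 4, all in the 3′ untranslated region. Elements that depart from the shape were not searched for, so these counts may be incomplete. The metallothionein genes of the set and SLC30A1 had no match, which says only that this exact shape is not in their transcripts. Of 19684 protein-coding genes, 168 (0.853%) held such a shape in an untranslated region. The shape describes sequence only and does not show that a protein was bound in these cells.

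The authors' values are FPKM, a read abundance per transcript length and library size, so levels can be set side by side between genes. They summed to between 682076 and 749446 per library. The read depth is unknown. NIPBL was at 23.92 and 23.11 FPKM under scramble, 7.27 under hairpin 1 and 9.17 under hairpin 7 (log2 change -1.42 ± 0.14, SE, limma, adjusted p = 0.0218), and missed the threshold when either scramble library was left out (limma, adjusted p = 0.257 and 0.261) or no filter was used (adjusted p = 0.118). The 8 epithelial markers summed to between 5334 and 6260 FPKM per library. The fibroblast markers summed to at most 9.62 FPKM, nearly all COL1A1, with COL1A2 and COL3A1 listed at 0 in every library. Leukocyte markers summed to at most 1.08 FPKM, endothelial markers to 0.99 FPKM and erythroid markers to 0.3 FPKM, with PTPRC and HBB listed at 0 throughout. The epithelial sum was lowest and the fibroblast sum highest with hairpin 1, and the part of either in the results was not tested. The epithelial markers went both ways with hairpin 1. KRT8, KRT18 and EPCAM were at 71.6%, 64.8% and 93.7% of their scramble means. CDH1, KRT19, KRT7, CLDN4 and CLDN7 were above both scramble libraries. Tests were limma on log2(FPKM + 1), over the 12834 genes that averaged 1 FPKM or more, with p-values adjusted over all of them, and log2 changes are knockdown minus scramble on that scale.

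Both ferritin genes were higher with both hairpins, the transferrin receptor was near its scramble level, MT2A was higher, and MT1F and SLC30A1 were lower. FTL alone of these genes passed the test. Of the 7 tested genes 1 (14.3%) passed, against 2.56% of all genes tested (1.45% higher and 1.11% lower), and 3 had an unadjusted p under 0.05, against 26.4%. In 5 of the 7 (71.4%) the groups did not overlap, 3 with the knockdown libraries above and 2 with them below. Over all genes tested 60.3% did not overlap, 29.5% above and 30.8% below, so the share among these genes is near that of any gene. The median log2 change of the 7 was -0.017, beside -0.013 over all genes tested.

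**Figure D1:**
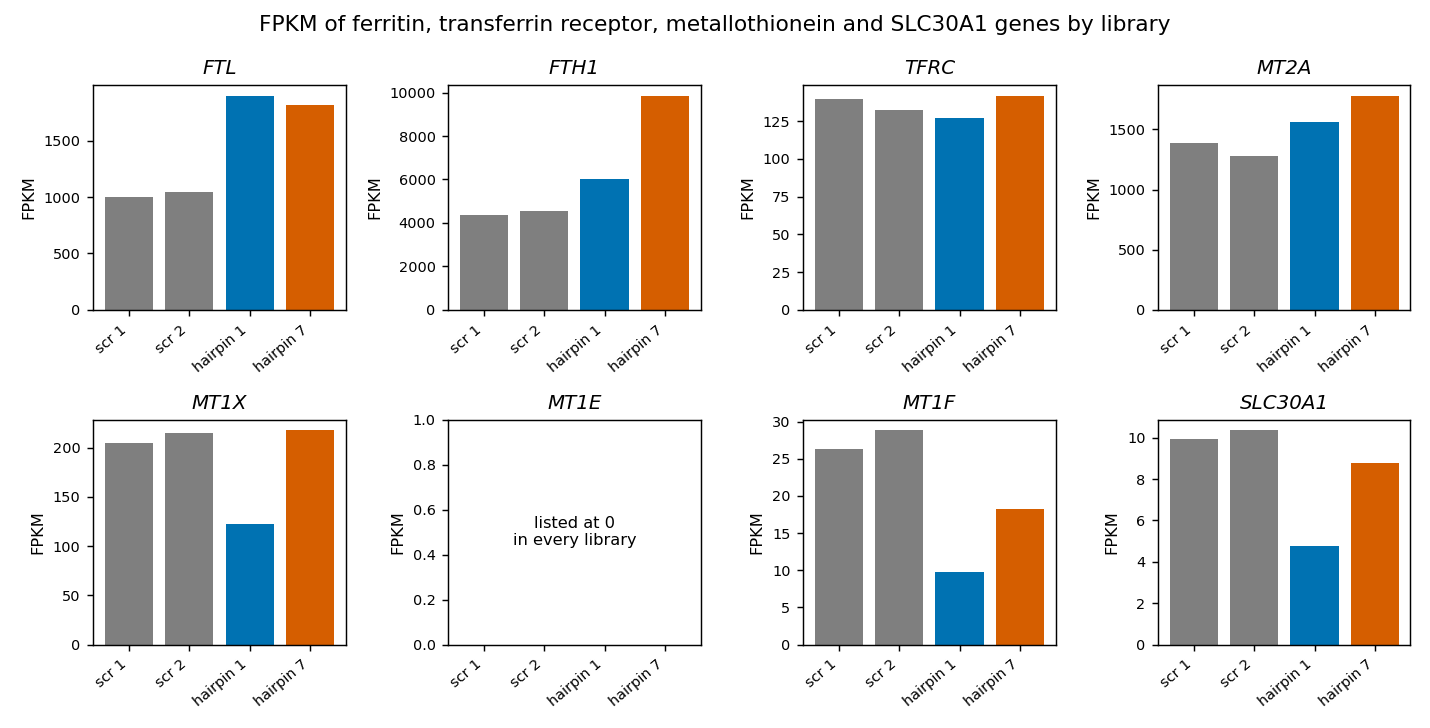
FPKM (vertical axes, each starting at 0) of the 8 genes in the 2 scramble libraries (grey), with hairpin 1 (blue) and with hairpin 7 (orange), each bar being 1 library. FTL and FTH1 stand above both scramble libraries with either hairpin, MT1F and SLC30A1 below them, and MT1E is listed at 0 throughout.

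FTL (ENSG00000087086, GRCh38 in GENCODE 29, chromosome 19, 48965301 to 48966878, plus strand), the light chain of ferritin, was at 1004.11 and 1046.40 FPKM under scramble, 1900.24 under hairpin 1 and 1820.14 under hairpin 7. The hairpin libraries lay close together and far above both scramble libraries. FTL rose 1.81-fold. The means were 1025 ± 29.9 and 1860 ± 56.6 FPKM (SD, 2 libraries a group), and the log2 change of 0.86 ± 0.12 passed (SE, limma, adjusted p = 0.0425). It moved from rank 100 and 94 among gene rows in the scramble libraries to rank 48 with hairpin 1 and 39 with hairpin 7. The hairpins differed by 0.06 on the log2 scale, and 85.4% of the genes tested had a hairpin gap at least as large. FTL lost its call without scramble 1 (log2 change 0.83, adjusted p = 0.616) or scramble 2 (0.89, adjusted p = 0.601), where the remaining scramble library is taken to vary as much as the hairpin libraries, and with no filter on low values (adjusted p = 0.159; limma).

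FTH1 (ENSG00000167996, chromosome 11, 61959718 to 61967660, minus strand), the heavy chain with the iron-oxidising site, was at 4375.96 and 4538.01 FPKM under scramble, 6003.65 under hairpin 1 and 9858.30 under hairpin 7. Each hairpin lay above both scramble libraries, with hairpin 7 well above hairpin 1. The means were 4457 ± 115 and 7931 ± 2726 FPKM (SD, 2 libraries a group), a ratio of 1.78, with a log2 change of 0.79 ± 0.27 that did not pass (SE, limma, adjusted p = 0.162). Relative to the scramble mean FTH1 was at 135% under hairpin 1 and 221% under hairpin 7. It was the most abundant of the 8 genes in every library, at rank 15 and 12 of all gene rows in the scramble libraries, rank 9 with hairpin 1 and rank 2 with hairpin 7. The log2 gap between hairpins was 0.72, and 7.12% of the genes tested had one as large. The log2 change was 1.15 for hairpin 7 alone and 0.43 for hairpin 1 alone. With 1 hairpin left out, a test takes the other hairpin to vary as much as the scramble libraries do. For single genes that setting is therefore given as a log2 change without a call.

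The FTH1 and FTL FPKM together summed to 5380 and 5584 in the scramble libraries, 7904 with hairpin 1 and 11678 with hairpin 7. That was 0.728% and 0.764% of all FPKM in the scramble libraries, 1.05% with hairpin 1 and 1.71% with hairpin 7. Ferritin thus took a larger share of the summed FPKM, which is not a share of reads, in both hairpin libraries. The sum over all rows was itself lowest with hairpin 7, at 682076. The chains did not keep 1 proportion. The ratio of FTH1 to FTL was 4.36 and 4.34 in the scramble libraries, 3.16 with hairpin 1 and 5.42 with hairpin 7. Hairpin 1 lay below and hairpin 7 above the scramble libraries, which were nearly equal.

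Ferritin genes have many processed pseudogenes, copies so alike that RSEM may share reads among them. The table named 25 FTH1 pseudogenes, of which 15 were above 0 in some library, and their FPKM summed to 25.6 and 25.2 in the scramble libraries, 39.7 with hairpin 1 and 52.5 with hairpin 7. They came to between 0.533% and 0.661% of FTH1, a nearly constant share. All 6 with a mean of at least 1 FPKM were above both scramble libraries with either hairpin, with a median log2 change of 0.78. Over all genes tested 29.5% lay above in this way and 2.56% passed. As the copies may share reads with FTH1 and each other, the 6 may not be separate results. Of these, FTH1P10 (5.87 and 6.18 FPKM in scramble, 10.74 with hairpin 1 and 12.33 with hairpin 7) and FTH1P2 (5.38, 6.31, 11.27 and 11.22 FPKM in that order) rose, with log2 changes of 0.83 ± 0.12 and 0.84 ± 0.13 (SE, limma, adjusted p = 0.0493 and 0.0491). Both lay just inside the threshold and lost the call under quantile normalization (adjusted p = 0.0526 for each) and when either scramble library was left out (adjusted p between 0.443 and 0.523; limma). They were named after their values were seen, and whether the pseudogenes or FTH1 gave those reads was not tested. The 16 FTL pseudogenes summed to at most 3.37 FPKM. Adding pseudogenes left the ratios of means at 1.78 for FTH1 and 1.81 for FTL.

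TFRC (ENSG00000072274, chromosome 3, 196027183 to 196082189, minus strand), the receptor that carries iron-loaded transferrin into the cell, was at 139.77 and 132.09 FPKM under scramble, 127.01 under hairpin 1 and 141.92 under hairpin 7. Hairpin 1 was the lowest and hairpin 7 the highest of the 4, with all libraries within a narrow range. The log2 change was -0.017 ± 0.10 (SE, limma, adjusted p = 0.933), from 136 ± 5.43 to 134 ± 10.5 FPKM (SD, 2 libraries a group). Its sign turned under quantile normalization, where the log2 change was 0.027. The ratio of ferritin (FTH1 plus FTL) to TFRC FPKM was 38.5 and 42.3 in the scramble libraries, 62.2 with hairpin 1 and 82.3 with hairpin 7. Both hairpin libraries were above both scramble libraries in this ratio.

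**Figure D2:**
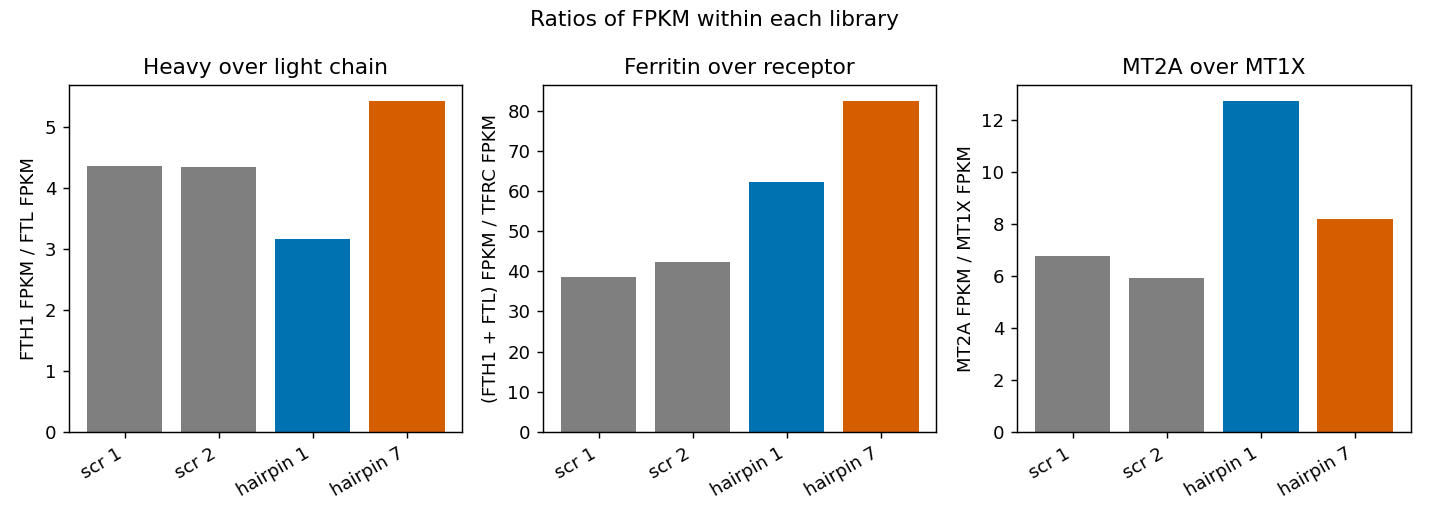
Ratios of FPKM within each library (vertical axes start at 0): FTH1 over FTL, FTH1 plus FTL over TFRC, and MT2A over MT1X, in the 2 scramble libraries (grey), with hairpin 1 (blue) and hairpin 7 (orange). The heavy to light chain ratio is 3.16 with hairpin 1 and 5.42 with hairpin 7, while the other ratios are above both scramble libraries with either hairpin.

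The metallothionein genes lie side by side on chromosome 16. Of the 11 genes of the family, 3 had signal and 8 were listed at 0 in every library: MT1A, MT1B, MT1E, MT1G, MT1H, MT1M, MT3 and MT4. The 4 metallothionein pseudogenes of the table were listed at 0 as well. The genes are near copies of each other, so the split of reads between them is uncertain. Their summed FPKM was 1614 and 1520 FPKM under scramble, 1691 under hairpin 1 and 2016 under hairpin 7. Both hairpin libraries lay above both scramble libraries, hairpin 1 by a small margin.

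MT2A (ENSG00000125148, chromosome 16, 56608199 to 56609497, plus strand), the metallothionein with the highest listed FPKM in every library, was at 1382.71 and 1275.80 FPKM under scramble, 1558.34 under hairpin 1 and 1780.39 under hairpin 7. The knockdown libraries were above both scramble libraries, without a wide gap between hairpin 1 and scramble 1. The means were 1329 ± 75.6 and 1669 ± 157 FPKM (SD, 2 libraries a group), and the log2 change of 0.33 ± 0.13 did not pass (SE, limma, adjusted p = 0.209). The log2 change was 0.42 for hairpin 7 alone and 0.23 for hairpin 1 alone.

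MT1X (ENSG00000187193, chromosome 16, 56682424 to 56684196, plus strand) was at 204.78 and 215.22 FPKM under scramble, 122.83 under hairpin 1 and 217.62 under hairpin 7. Only the hairpin 1 library stood apart among these 4, and hairpin 7 was level with scramble 2. The log2 change over both hairpins was -0.36 ± 0.28 (SE, limma, adjusted p = 0.453), made of -0.77 with hairpin 1 and 0.05 with hairpin 7. With hairpin 1 left out the sign turned (log2 change 0.052).

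MT1F (ENSG00000198417, chromosome 16, 56657694 to 56660698, plus strand), the least abundant metallothionein with signal, was at 26.29 and 28.83 FPKM under scramble, 9.74 under hairpin 1 and 18.26 under hairpin 7. Each hairpin library was below both scramble libraries, hairpin 1 the further. The means were 27.6 ± 1.80 and 14.0 ± 6.02 FPKM (SD, 2 libraries a group), a ratio of 0.508, and the log2 change of -0.99 ± 0.29, the largest in size of the 7 genes, did not pass (SE, limma, adjusted p = 0.125). The log2 change of MT1F was -0.57 for hairpin 7 alone and -1.41 for hairpin 1 alone.

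The mix of metallothionein RNA differed between libraries. MT2A made up 85.7% and 83.9% of the family's FPKM in the scramble libraries, 92.2% with hairpin 1 and 88.3% with hairpin 7. MT1X made up 12.7% and 14.2% in scramble, 7.26% with hairpin 1 and 10.8% with hairpin 7, and MT1F 1.63% and 1.90% in scramble, 0.576% with hairpin 1 and 0.906% with hairpin 7. For each of the 3 shares the groups did not overlap, with MT2A taking more and MT1X and MT1F less of the family in both hairpin libraries. The shares are parts of the same total, so they are not separate results. With hairpin 7 the FPKM of MT1X itself, 217.62, was not below either scramble library. These shares depend on how reads were split between near copies.

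SLC30A1 (ENSG00000170385, chromosome 1, 211571568 to 211578742, minus strand), the exporter that moves zinc out of the cell, was at 9.93 and 10.35 FPKM under scramble, 4.75 under hairpin 1 and 8.79 under hairpin 7. Hairpin 1 was well below the other libraries, and hairpin 7 was just below the scramble pair. The means were 10.1 ± 0.297 and 6.77 ± 2.86 FPKM (SD, 2 libraries a group), and the log2 change was -0.57 ± 0.27 (SE, limma, adjusted p = 0.255). For hairpin 1 alone the log2 change was -0.95, and for hairpin 7 alone -0.19. MTF1, the factor that acts on SLC30A1 and the metallothionein genes, was at 4.45 and 4.39 FPKM under scramble, 3.33 under hairpin 1 and 4.06 under hairpin 7 (log2 change -0.21, limma, adjusted p = 0.415). MTF1 was lowest with hairpin 1, where SLC30A1, MT1X and MT1F were also lowest and MT2A was above both scramble libraries. A link between MTF1 and these levels was not tested.

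**Figure D3:**
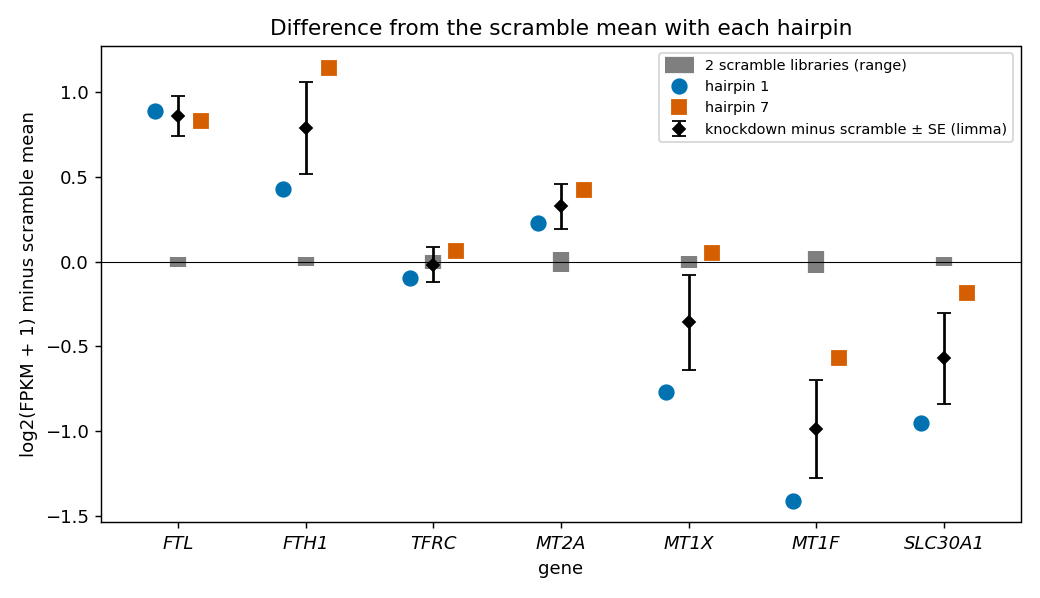
Difference of log2(FPKM + 1) from the scramble mean (vertical axis) for the 7 tested genes with hairpin 1 (blue circles) and hairpin 7 (orange squares), the range of the 2 scramble libraries (grey) and the limma log2 change with its SE (black diamonds). The hairpins lie close together for FTL, at 0.89 and 0.83, and are widest apart for MT1F, at -1.41 and -0.57.

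The scramble libraries differed by between 0.05 and 0.13 on the log2 scale for the 7 genes, within the SD of 0.282 over all genes tested. The hairpin gap was wider for FTH1, MT1X, MT1F and SLC30A1 than for the rest of the 7, beside an SD of 0.451 over all genes tested. In these 4 genes hairpin 7 was higher than hairpin 1, by 0.72, 0.82, 0.84 and 0.77 in that order, and between 4.89% and 7.12% of the genes tested had a gap as large. MT2A and TFRC were also higher with hairpin 7, by 0.19 and 0.16, and FTL was lower by 0.06. Since each hairpin is 1 library, whether these gaps would repeat was not tested. NIPBL itself stood at 30.9% of its scramble mean under hairpin 1 and 39.0% under hairpin 7.

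Stretches upstream of the RefSeq starts of MT1X and SLC30A1 are shown because they hold the metal response element core, the motif through which MTF1 acts. The RefSeq promoter table (GRCh38.p14) held 5 of the 8 genes, FTL, TFRC, MT2A, MT1X and SLC30A1, and the 250 bases before each start were searched on both strands for TGCACNC or TGCGCNC. Cores are in capitals, 5′ to 3′ on the gene's strand, and a core on the opposite strand reads as its reverse complement.
MT1X, chr16:56682220-56682423, plus strand, 250 to 47 bases before the start: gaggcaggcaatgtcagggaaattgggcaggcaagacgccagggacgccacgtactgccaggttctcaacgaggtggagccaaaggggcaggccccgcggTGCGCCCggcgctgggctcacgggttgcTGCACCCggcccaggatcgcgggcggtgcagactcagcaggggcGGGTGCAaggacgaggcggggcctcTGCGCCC
SLC30A1, chr1:211579192-211579221, minus strand, 60 to 31 bases before the start: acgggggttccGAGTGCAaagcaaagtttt
The RefSeq starts are not those of the GENCODE 29 genes given above. The RefSeq start lay inside the GENCODE gene by 385 bases for MT2A, 99 for TFRC, 46 for MT1X and 8 for FTL, and 419 bases upstream of it for SLC30A1. All 250 bases searched for MT2A therefore lay within the GENCODE gene, and no MT2A stretch is printed, while both printed stretches were upstream of both starts. The 250 bases of MT2A held 7 cores, those of MT1X 4, TFRC 3, SLC30A1 1 and FTL 0. As the windows lie differently against the GENCODE starts, these counts do not rank the genes. The bases next to the GENCODE start of SLC30A1 were not searched. In TFRC 2 of the 3 overlapped on opposite strands. Among the 35116 promoters searched, 24.8% held at least 1 core, 1.58% at least 3, 0.37% at least 4 and 0.0313% at least 7. The core of the antioxidant response element, TGACNNNGC, which NRF2 binds, occurred once each in MT2A, MT1X and SLC30A1, and 10.9% of promoters held it. MT2A and MT1X both carry several cores, and neither gene passed the test (limma, adjusted p = 0.209 and 0.453). The part of the cores in the levels of these genes was not tested. A match is a stretch of letters and does not show that a factor was bound.

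**Figure D4:**
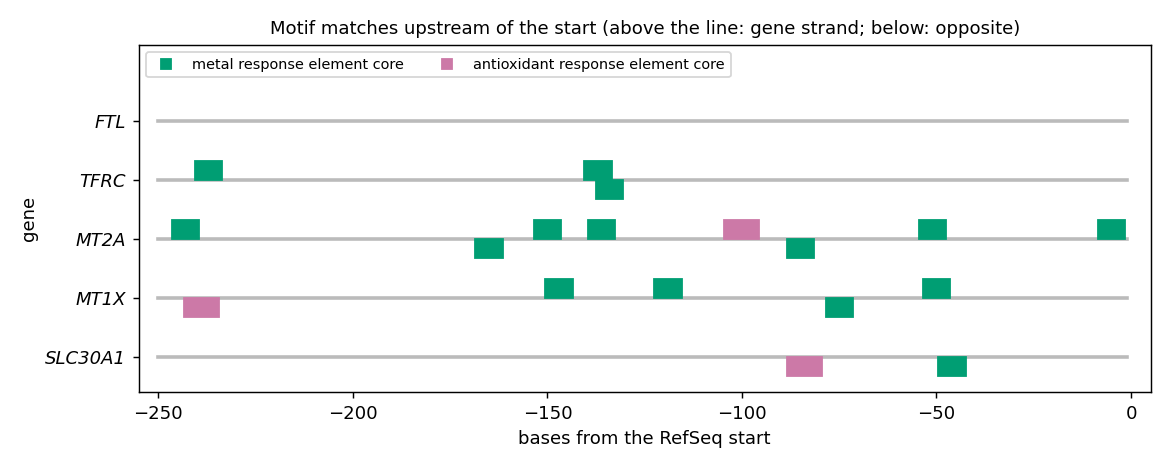
Matches to the metal response element core (green) and the antioxidant response element core (pink) in the 250 bases before the RefSeq start of 5 genes, with distance from the start in bases on the horizontal axis, above each line on the gene's strand and below it on the other. MT2A carries 7 metal response cores, MT1X 4, TFRC 3, SLC30A1 1 and FTL 0, in windows that lie differently against the GENCODE starts.

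Other genes of metal handling were read from 11 lists with 126 distinct genes, of which 98 were tested. Of these 98, 2 passed (2.04%, against 2.56% of all genes), FTL and the zinc importer gene SLC39A10. At an unadjusted p under 0.05 there were 21 (21.4%, against 26.4%), and the median log2 change was 0.004. Both shares were close to those over all genes, and single genes are described below.

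**Figure D5:**
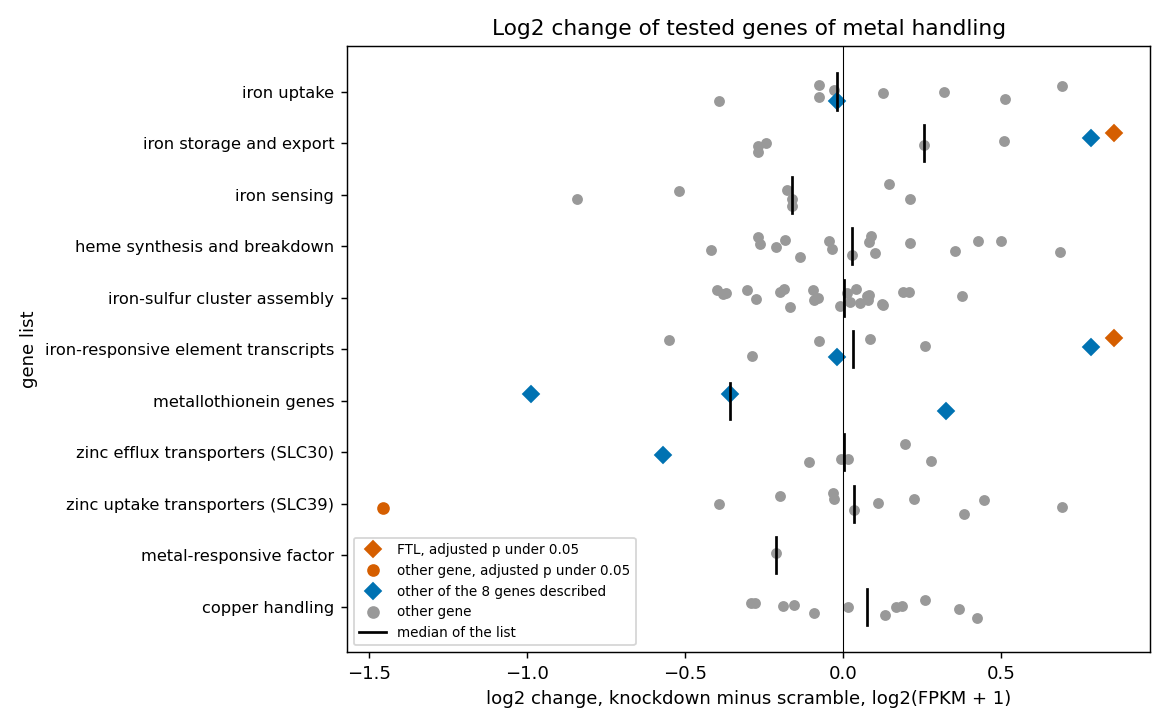
Log2 change (horizontal axis, knockdown minus scramble, from log2(FPKM + 1) values) of each tested gene in 11 lists (vertical axis), with list medians as black bars, the 8 genes described as diamonds and genes with an adjusted p under 0.05 in orange. FTL, at 0.86, and SLC39A10, at -1.45, are the genes that passed, and list medians lie between -0.36 and 0.26.

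Among 9 tested genes of iron uptake 0 passed (limma; 2 higher and 1 lower at an unadjusted p under 0.05), with a median of -0.017. SLC39A13, a ZIP family metal transporter, was at 14.44 and 13.15 FPKM under scramble, 21.99 under hairpin 1 and 23.85 under hairpin 7 (log2 change 0.69 ± 0.11, SE, limma, adjusted p = 0.0531). LCN2, which binds bacterial iron carriers, was at 1016.84 and 980.31 FPKM under scramble, 1296.64 under hairpin 1 and 1570.77 under hairpin 7 (adjusted p = 0.114; limma). SLC39A14, which carries zinc and free iron, had a log2 change of -0.39 and SLC11A2, the endosomal iron exporter of the transferrin cycle, of -0.075 (limma, adjusted p = 0.113 and 0.659). MCOLN1, a lysosomal channel that releases iron, had a log2 change of 0.32 (adjusted p = 0.444; limma). Both hairpin libraries lay beyond both scramble libraries for SLC39A13, LCN2, SLC39A14 and SLC11A2, the last by a very small margin, and MCOLN1 overlapped, where 60.3% of all genes tested did not overlap.

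Of 7 tested genes of iron storage and export FTL passed and no other did, and the median was 0.26. NCOA4, the receptor that delivers ferritin to the lysosome for breakdown, was at 54.02 and 54.52 FPKM under scramble, 73.38 under hairpin 1 and 82.29 under hairpin 7. Both hairpins lay above both scramble libraries, with a log2 change of 0.51 ± 0.10 that did not pass (SE, limma, adjusted p = 0.0735). SLC25A28, a mitochondrial iron importer, had a log2 change of -0.27 (limma, adjusted p = 0.182). PCBP1 and PCBP2, which hand iron to ferritin, were at 177.16 and 231.61 FPKM with hairpin 1 and at 241.30 and 199.07 FPKM with hairpin 7, beside 241.96 and 258.04 FPKM in scramble 1 and 248.33 and 259.52 FPKM in scramble 2. The iron exporter SLC40A1 was at most at 0.41 FPKM in any library and was not tested.

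Of 7 tested genes of iron sensing 0 passed (limma; 0 higher and 2 lower at an unadjusted p under 0.05), with a median of -0.16. IREB2, iron regulatory protein 2, was at 15.16 and 15.37 FPKM under scramble, 11.91 under hairpin 1 and 8.97 under hairpin 7 (log2 change -0.52 ± 0.16, SE, limma, adjusted p = 0.13). ACO1, iron regulatory protein 1, had a log2 change of -0.18 (adjusted p = 0.367; limma). BMP6, a ligand that drives hepcidin in liver, was at 2.33 and 2.07 FPKM under scramble, 0.91 under hairpin 1 and 0.67 under hairpin 7. BMP6 averaged 1 FPKM or more only through the scramble libraries, and it is among the 2 lower genes counted above. Its log2 change of -0.84, or -1.38 with a pseudocount of 0.1, is therefore given without a call. NEO1, a co-receptor for hemojuvelin, was at 12.83 and 12.87 FPKM under scramble, 16.41 under hairpin 1 and 13.79 under hairpin 7 (log2 change 0.21, limma, adjusted p = 0.33). Both hairpin values were below both scramble values for IREB2 and ACO1 and above them for NEO1, where 60.3% of all genes tested did not overlap.

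Of the 10 genes listed as carrying an iron-responsive element, 7 held the shape searched for in an untranslated region, and 8 were tested. FTL passed and no other did, with a median of 0.03. EPAS1, which encodes a hypoxia-inducible factor subunit, was at 25.38 and 26.27 FPKM under scramble, 12.77 under hairpin 1 and 23.39 under hairpin 7. CDC42BPA, a kinase gene, had a log2 change of 0.26 (limma, adjusted p = 0.215, and 0.282 for EPAS1). The members of this list lay on both sides of 0, 4 above and 4 below.

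Genes of heme synthesis and breakdown numbered 17 tested, of which 0 passed (limma; 2 higher and 0 lower at an unadjusted p under 0.05), with a median of 0.03. BLVRB, a biliverdin reductase, was at 46.59 and 47.29 FPKM under scramble, 83.51 under hairpin 1 and 69.61 under hairpin 7 (log2 change 0.69 ± 0.12, SE, limma, adjusted p = 0.0616). UROS, a heme synthesis enzyme, had a log2 change of 0.35 and ALAS1, the first enzyme of that route, of -0.21 (limma, adjusted p = 0.108 and 0.243). FECH, which inserts the iron, had a log2 change of 0.21 (limma, adjusted p = 0.3). Iron-sulfur cluster assembly had 24 tested genes, of which 0 passed (limma; 1 higher and 3 lower at an unadjusted p under 0.05), with a median of 0.003. The cysteine desulfurase gene NFS1 had a log2 change of -0.38 and FDXR, which passes electrons to the assembly machinery, of 0.38 (limma, adjusted p = 0.167 and 0.136). CIAO1, of the cytosolic assembly machinery, was at -0.37 and HSPA9, a mitochondrial chaperone, at -0.30 on the same scale (limma, adjusted p = 0.165 and 0.176).

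SLC39A10, a zinc importer of the plasma membrane, was at 31.44 and 32.02 FPKM under scramble, 9.66 under hairpin 1 and 12.39 under hairpin 7. The hairpin libraries were close together and far below the scramble libraries. SLC39A10 fell to 0.347 of its scramble mean of 31.7 ± 0.410 FPKM (SD, 2 libraries; log2 change -1.45 ± 0.14, SE, limma, adjusted p = 0.0218). Leaving out scramble 1 or scramble 2 ended the call (limma, adjusted p = 0.247 and 0.261), as did testing with no filter (adjusted p = 0.118). Of the 11 tested zinc uptake genes it was the 1 that passed, and the list had a median of 0.04. SLC39A1, another plasma membrane importer, was at 94.54 and 97.33 FPKM under scramble, 119.42 under hairpin 1 and 144.23 under hairpin 7 (limma, adjusted p = 0.113).

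Of the 6 tested zinc efflux genes 0 passed (limma; 0 at an unadjusted p under 0.05), and SLC30A1 had the largest log2 change in size among them. SLC30A9 had a log2 change of 0.20 and SLC30A7, which supplies the Golgi, of -0.11 (limma, adjusted p = 0.374 and 0.664). SLC30A4, which loads zinc into vesicles, was at 0.83 and 0.81 FPKM under scramble, 1.31 under hairpin 1 and 1.11 under hairpin 7. SLC30A4 is among the 6 tested, but averaged 1 FPKM or more only through the hairpin libraries. Its log2 change of 0.28, or 0.51 with a pseudocount of 0.1, is therefore given without a call. Of 12 copper genes 0 passed (limma; 2 higher and 1 lower at an unadjusted p under 0.05), with a median of 0.08. COMMD1, which helps to sort copper transporters, had a log2 change of 0.37, the copper exporter gene ATP7A of 0.42 and the copper chaperone gene COX17 of -0.29 (limma, adjusted p = 0.116, 0.13 and 0.167). SCO1, which helps to load copper into cytochrome oxidase, was at -0.28 (limma, adjusted p = 0.214).

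The protein-coding genes whose profile over the 4 libraries was nearest to a member were taken by Euclidean distance between mean-centred log2(FPKM + 1) values, 2 each for FTL, TFRC and MT2A. FAM89B (distance 0.0509) and FAM214B (0.0771) were nearest to FTL. FAM89B was at 23.72 and 25.32 FPKM under scramble, 47.00 under hairpin 1 and 46.07 under hairpin 7, a step of the same size as that of FTL at a far lower level. GABBR1 (0.00977) and PIAS1 (0.018) were nearest to TFRC, and GTF2B (0.0132) and FAM177A1 (0.0154) to MT2A. All libraries are shared by these profiles, and the distances are a description without a test.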

How the data were processed

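RNA sequencing was done on 4 libraries of NUGC3 cells, 2 labelled scramble and 2 labelled NIPBL knockdown. The deposited values are FPKM per gene with 2 decimals. The authors used the STAR aligner and RSEM, per the submitters' processing notes, which list no versions. Build, annotation, strand setting and filters: not given in the sources used here. Whether the counting separated overlapping genes is therefore unknown. FPKM give no depth, so no counting intervals are given.

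The test was limma 3.58.1 (R 4.3.3) on log2(FPKM + 1) (lmFit, eBayes with a mean trend, 2 residual and 2.87 prior degrees of freedom), two-sided, adjusted by Benjamini and Hochberg over the 12834 genes averaging 1 FPKM or more, threshold 0.05. Tables were made with Python 3.11.15. Rows without an Ensembl gene identifier stayed out (8.47% to 9.27% of FPKM). Of 169 list entries 2 were matched by the table's own symbol and 1 was not matched. Tested on simulated data (10 draws, 12834 genes, 200 of them altered), it called 0.2% of 1.5-fold, 27.8% of 2-fold and 72.8% of 4-fold changes, with 3.2 false calls a draw. The draws gave both groups of a gene an equal spread. In the data the log2 difference between hairpins had an SD of 0.451, against 0.282 between scramble libraries. These rates may therefore not hold for the data.

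The genes and lists were chosen with earlier results of these data known. Named genes are the 8 described, NIPBL, up to 4 genes with the smallest p in each list, and 2 nearest profiles for FTL, TFRC and MT2A. PCBP1, PCBP2, SLC11A2, SLC40A1 and 2 FTH1 pseudogenes were named after their values were seen. The search for the iron-responsive element shape was added after the values were seen. Protein sequences were not used here. Alternatives were another pseudocount (0.1), no filter or a mean of 5 FPKM, quantile and median ratio scaling, no trend, leaving out each library and, added after seeing the data, averaging the scramble libraries.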

Additional observations from a re-analysis of the deposited data

Results flagged for a closer look

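In a pair of genes and 1 ratio the hairpins lay on opposite sides of both scramble libraries. Each hairpin is 1 library and shares the scramble libraries with the other, so the difference was not tested. Of all genes tested 19.0% had hairpins on opposite sides. TFRC was lowest with hairpin 1 and highest with hairpin 7, a log2 gap of 0.16. MT1X was far below scramble with hairpin 1 and just above it with hairpin 7, a log2 gap of 0.82. The ratio of FTH1 to FTL was 3.16 with hairpin 1 and 5.42 with hairpin 7, beside 4.36 and 4.34 in the scramble libraries.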

How the results depend on the processing

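FTL kept its direction in all 11 alternatives, with log2 changes between 0.83 and 0.96. It lost its call without a filter on low values (log2 change 0.8588, adjusted p = 0.159) and with the scramble libraries averaged (0.8588, adjusted p = 0.656), as well as without either scramble library. The count of the 8 genes that passed was 1, and 0 without a filter or with the scramble libraries averaged; with 1 library left out it ranged from 0 (either scramble library) to 5 (hairpin 7). The count over the metal handling lists was 2, and 0 without a filter or with averaged scramble libraries, and ranged from 0 to 36 (hairpin 1 left out). Over all genes the count was 328, and 1 without a filter, and 0 with averaged scramble libraries, 0 without either scramble library, 4532 without hairpin 1 and 2915 without hairpin 7 (limma).

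With 1 library left out, log2 changes ranged from 0.83 to 0.89 for FTL, 0.43 to 1.15 for FTH1, -0.0966 to 0.0623 for TFRC, 0.23 to 0.42 for MT2A, -0.77 to 0.05 for MT1X, -1.41 to -0.57 for MT1F and -0.95 to -0.19 for SLC30A1. TFRC turned to 0.027 with quantile normalization, to 0.023 without scramble 1 and to 0.062 without hairpin 1, and MT1X to 0.052 without hairpin 1. No scaling turned the direction of the other 6 tested genes, and the median of all genes moved by at most 0.02. Of 42 other named genes 6 passed in the test as reported: NIPBL, SLC39A10, FAM89B, FAM214B, FTH1P10 and FTH1P2. Over 66 values of these 6 under the alternatives, 35 kept the call and 31 lost it, each of the 6 losing it without a filter, without either scramble library and with averaged scramble libraries (NIPBL adjusted p = 0.281 in the last; limma). Of 392 values of the 36 genes that did not pass, 353 stayed outside the threshold in the same direction, 34 passed (32 of them with 1 library left out) and 5 changed sign. Those were GABBR1, at 0.0006 with median ratio scaling, 0.0298 without scramble 1 and 0.0688 without hairpin 1 (range with 1 library left out -0.0857 to 0.0688), and PIAS1, at 0.0384 and 0.0741 in the last 2 settings (range -0.0985 to 0.0741). The unknown depth and 2 libraries per group limit what could be called.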
